A study of Mus musculus with 6 samples.

Results

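The genes described here are the autophagy machinery and its cargo receptors, 37 genes taken by symbol from the 35976 symbols of the count table. They comprise 5 genes of the initiation complex, 6 of the nucleation complex, 5 of membrane supply, 8 of the conjugation systems, 5 of the ATG8 family, 6 cargo receptors and scaffolds, and 2 of fusion with the lysosome. All 37 symbols were found. RAW264.7, a mouse macrophage cell line, was profiled by sequencing the 3′ ends of its mRNA, in 3 libraries of cells exposed to itaconate for 24 h and 3 libraries of untreated cells (control). Itaconate is a small mitochondrial acid that builds up in macrophages after inflammatory activation. The labels give no dose or form of itaconate, no vehicle for the control cells and no word on separate cultures, so p-values measure the spread between these libraries, which may be technical. All cells belong to 1 line, no genetic change is named, and no batch is labelled.

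In autophagy a membrane sheet grows around cytoplasm or damaged organelles, closes into an autophagosome and fuses with the lysosome, where the contents are digested. The ULK1 kinase complex starts the process and a class III phosphatidylinositol 3-kinase complex marks the site with a lipid that WIPI proteins read. Ubiquitin-like conjugation then fixes ATG8 proteins (the LC3 and GABARAP families) to the membrane, and cargo receptors such as p62 bind both ubiquitin-tagged cargo and ATG8. In macrophages the pathway is known for degrading bacteria and damaged mitochondria and for limiting inflammasome activity. Transcript counts report neither the amount of the proteins nor the flow of cargo through the pathway.

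The libraries held 5202626 to 6098934 counts. By these totals, 3 counts in a library correspond to 0.492 to 0.577 CPM (counts scaled to a common library size). Replicates of a group differed by more than counting error (mean chi-square per gene of 4.77 to 7.49 over the pairs of replicate libraries). The line carried its macrophage label: all 10 macrophage markers had at least 35 counts in every library. At an edgeR adjusted p under 0.05, 6 of the 10 fell and 1 rose after itaconate, against 11.2% and 10.7% of all genes tested. The largest falls were in Csf1r and Cd14, with log2 fold changes of -1.01 and -0.96. Cd68 rose, and Adgre1, Lyz2 and Mertk were not called. The summed counts, in which Csf1r and Cd14 weigh heavily, were 33543 to 36391 in itaconate and 45161 to 58934 in control libraries. The part of these changes in the results on autophagy genes was not tested. In bulk RNA, fewer cells carrying a transcript and less of it per cell cannot be told apart. Markers of fibroblasts, lymphocytes, epithelium, endothelium, mast cells and neutrophils summed to 17 to 18 counts in itaconate and 17 to 25 in control libraries over 17 genes. Of these, 11 were at 0 in all libraries, among them Cd3e, Krt8 and Pecam1. The others, Col1a1, Col1a2, Pdgfrb, Cd3d, Epcam and S100a8, had at most 11 counts in a library. Pdgfrb had 0 to 6 counts in itaconate and 9 to 11 in control libraries.

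Called rises among autophagy genes lay at some steps of the pathway. Transcripts of the cargo receptor p62 (Sqstm1), of the phospholipid reader Wipi1 and of the ATG8 gene Gabarapl1 rose most, by 1.51, 1.64 and 1.19 on the log2 scale. Of the 36 genes tested, 10 rose (27.8%), 1 fell and 25 did not pass at an edgeR adjusted p under 0.05. Across all 10636 genes tested, 10.7% rose and 11.2% fell. The median log2 fold change was 0.25 over the autophagy genes and -0.01 over all genes tested, and 23 of the 36 had a positive value. Of the 36, 3 rose with a log2 fold change of at least 1, against 2.41% of all genes tested. A rise at least as large as that of Sqstm1 was seen in 1.26% of all genes tested. The itaconate libraries lay wholly above the control libraries for 13 of the 36 and wholly below them for 2. Over all genes tested, they lay above for 17.6% and below for 17.9%. In either direction, the groups did not overlap for 41.7% of the autophagy genes and 35.6% of all genes tested.

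**Figure D1:**
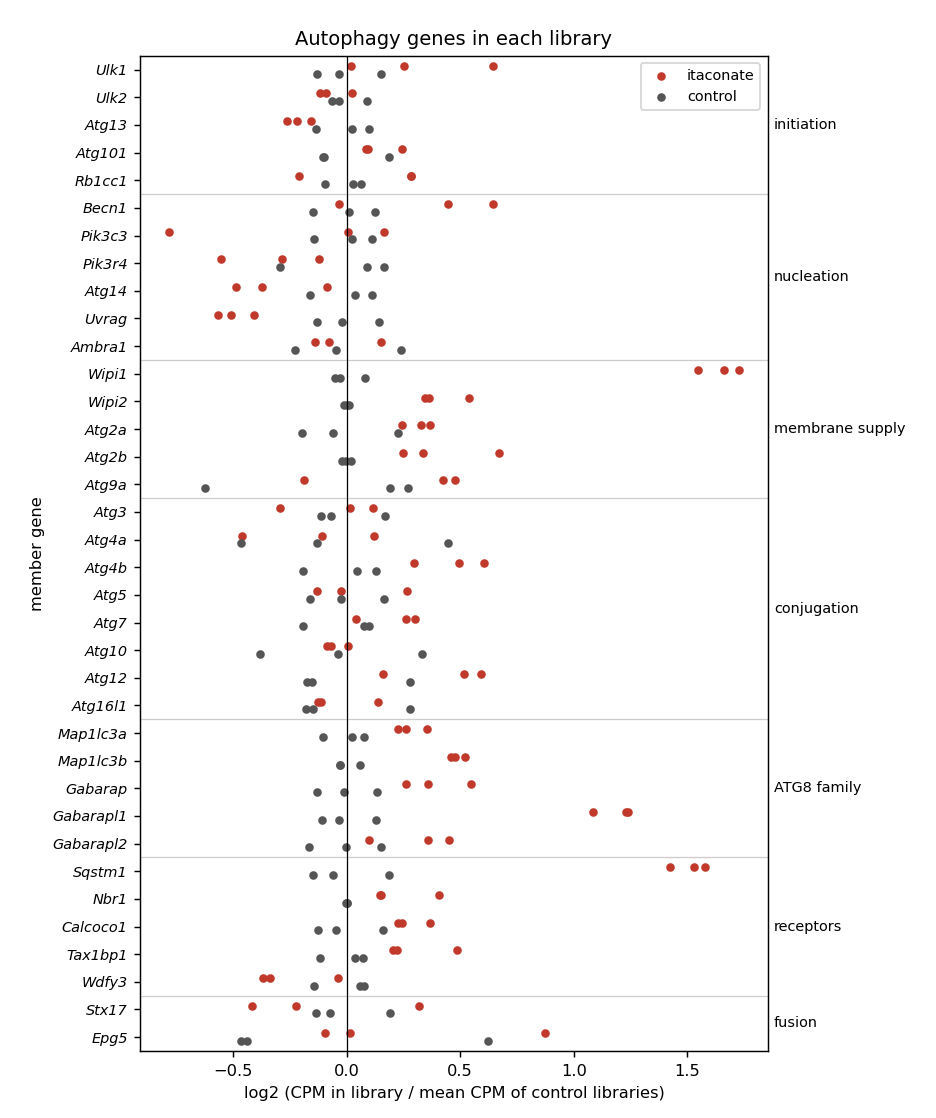
Level of each tested autophagy gene in each library, as the log2 ratio of its CPM to the mean of the 3 control libraries, with itaconate libraries as red points and control libraries as dark grey points, grouped by step. Wipi1, Gabarapl1 and Sqstm1 stand apart at ratios above 1, while most genes of initiation, nucleation and conjugation have points of both groups mixed around 0.

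Calls were also counted by step, to be read beside the 10.7% of all genes tested that rose and the 11.2% that fell. Among the ATG8 family 3 of 5 tested genes rose and among the receptors and scaffolds 3 of 5, with median log2 fold changes of 0.39 and 0.28. In membrane supply 2 of 5 rose (median 0.42) and in conjugation 2 of 8 (median 0.01). The conjugation count was 0 by DESeq2, with library totals and without control replicate 3 or itaconate replicate 3, and 1 with no count filter or without any other single library. Receptors had 2 higher by DESeq2, with library totals and without any 1 control replicate or itaconate replicate 2, and 1 without itaconate replicate 1. Membrane supply had 1 higher without control replicate 2 or itaconate replicate 3. None of the 5 initiation genes and neither fusion gene was called with edgeR (0 at an unadjusted p under 0.05 in each step), with medians of 0.14 and 0.13, and limma-voom and DESeq2 also called 0 in both. Nucleation held the gene that fell, 1 of 6 (16.7%, near the 11.2% of all genes tested). Its median was -0.23, and it had 0 lower without control replicate 1. These are counts over small lists, and the difference between steps was not itself tested. A call also depends on depth. Calcoco1, with 813 to 1081 counts in a library, was called at 0.28 ± 0.10 (SE). Becn1, with 41 to 71 counts, was not called at 0.38 ± 0.33, nor was Ulk1 at 0.33 ± 0.21. A step without calls is therefore not shown to be unchanged, and 0 calls among so few genes carry little weight beside the shares of all genes.

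Promoter sequences are shown for the 4 genes with the largest rises and for Atg3, the one gene among the 29 with a promoter entry that held a CLEAR core (the element of the lysosomal regulator TFEB), to show what the DNA next to their start sites holds. They come from the RefSeq promoter table of GRCm38.p6 and run from 250 bases before the start site to 50 bases after it. Capitals mark matches to the motifs searched, and a sequence without capitals held none.
Sqstm1 promoter, chr11:50210771-50211070, minus strand: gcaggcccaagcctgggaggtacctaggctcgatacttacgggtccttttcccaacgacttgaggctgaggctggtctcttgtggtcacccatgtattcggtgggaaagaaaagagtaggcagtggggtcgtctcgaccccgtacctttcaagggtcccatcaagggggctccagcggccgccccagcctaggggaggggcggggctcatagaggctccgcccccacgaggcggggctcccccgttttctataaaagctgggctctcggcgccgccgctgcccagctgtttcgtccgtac
Gabarapl1 promoter, chr6:129532942-129533241, plus strand: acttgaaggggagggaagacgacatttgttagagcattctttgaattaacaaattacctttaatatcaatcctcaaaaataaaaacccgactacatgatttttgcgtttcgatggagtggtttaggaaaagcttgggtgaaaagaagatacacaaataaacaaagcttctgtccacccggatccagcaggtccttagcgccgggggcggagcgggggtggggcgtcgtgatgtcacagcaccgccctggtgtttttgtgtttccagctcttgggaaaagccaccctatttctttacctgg
Wipi1 promoter, chr11:109611340-109611639, minus strand: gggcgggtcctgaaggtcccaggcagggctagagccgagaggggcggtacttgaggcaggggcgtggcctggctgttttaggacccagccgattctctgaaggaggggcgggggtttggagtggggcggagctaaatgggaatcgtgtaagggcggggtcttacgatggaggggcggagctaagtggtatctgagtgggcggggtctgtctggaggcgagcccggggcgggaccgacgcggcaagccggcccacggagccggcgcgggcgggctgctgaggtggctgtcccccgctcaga
Map1lc3b promoter, chr8:121590188-121590487, plus strand: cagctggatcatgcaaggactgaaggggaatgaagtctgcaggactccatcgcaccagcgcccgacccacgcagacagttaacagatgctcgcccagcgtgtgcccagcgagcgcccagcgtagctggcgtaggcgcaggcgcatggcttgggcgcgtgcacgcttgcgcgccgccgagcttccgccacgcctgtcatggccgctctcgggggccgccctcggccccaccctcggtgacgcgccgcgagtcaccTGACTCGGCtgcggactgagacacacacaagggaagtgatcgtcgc
Atg3 promoter, chr16:45158579-45158878, plus strand: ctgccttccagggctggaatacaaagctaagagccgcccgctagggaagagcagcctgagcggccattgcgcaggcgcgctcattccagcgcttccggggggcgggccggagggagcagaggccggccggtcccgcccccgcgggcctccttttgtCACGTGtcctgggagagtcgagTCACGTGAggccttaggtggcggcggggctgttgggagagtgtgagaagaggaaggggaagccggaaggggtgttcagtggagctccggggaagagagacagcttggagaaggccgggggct

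The motifs were searched on both strands in 32 windows of 29 autophagy genes and in all 32851 windows of the table. The antioxidant response element core TGACNNNGC, to which NRF2 binds, was found in 4 of the 32 windows (Tax1bp1, Map1lc3b, Atg13 and Ulk2) and in 12.4% of all windows. In Map1lc3b it began at base 5 of the transcript. The CLEAR core TCACGTGA was found in 1 window and in 0.974% of all windows. The E-box CACGTG, which the CLEAR core contains, was found in 4 (Atg3, Atg5, Atg7 and Atg14) and in 7.15% of all. The ATF4 element core TGATGNAA was found in 0 of the 32 and in 3.97% of all. Of the 4 genes with the largest rises, the windows of Sqstm1, Gabarapl1 and Wipi1 held none of these letters. Elements farther from the start site were not searched. Some windows lie wholly inside the annotated bounds of the gene, among them those of Atg7, Atg14 and Wipi1. The Atg7 window begins at base 114670846 of chromosome 6, while the gene begins at 114643097. For these genes the sequence before the outermost start was not searched. The median GC content was 59.3% over the windows of autophagy genes and 52.7% over all windows.

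Cargo receptors were led by Sqstm1, which encodes p62, a receptor for ubiquitinated cargo that also binds the NRF2 inhibitor KEAP1. Sqstm1 (GRCm38 chromosome 11, 50199366 to 50210827, minus strand) had 1469, 1319 and 1417 CPM in itaconate libraries, against 471.9, 558.9 and 443.7 CPM in control libraries. The lowest itaconate library was far above the highest control library, and the rise was 2.85-fold (log2 fold change 1.51 ± 0.08 SE, edgeR adjusted p = 7.49e-21). Its exons overlap Mrnip on the opposite strand, and the strand setting of the counting is not given in the sources used here. Mrnip, listed under an older symbol, had 30 to 33 counts in itaconate and 30 to 53 in control libraries, against 7061 to 8105 counts of Sqstm1 in itaconate and 2378 to 3441 in control libraries.

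Calcoco1, a receptor for Golgi and endoplasmic reticulum membranes, had 185.5, 202.0 and 183.4 CPM in itaconate libraries and 143.5, 174.9 and 151.7 CPM in control libraries. The groups did not overlap but lay close together, with a log2 fold change of 0.28 ± 0.10 (edgeR adjusted p = 0.0336). DESeq2 did not call it (adjusted p = 0.0520), nor did edgeR scaled by library totals (0.0926) or without control replicate 1 (0.172), control replicate 3 (0.110), itaconate replicate 1 (0.0518) or itaconate replicate 2 (0.173). Tax1bp1, a ubiquitin-binding receptor that also restrains NF-kB signalling, had 254.0, 209.5 and 211.8 CPM in itaconate libraries and 186.3, 167.5 and 191.1 CPM in control libraries. All 3 itaconate libraries were above the controls (log2 fold change 0.31 ± 0.10, edgeR adjusted p = 0.0148). This call was lost without control replicate 2 (0.112) or itaconate replicate 1 (0.158).

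The other receptors were not called. Nbr1, a receptor that works together with p62, averaged 60.4 ± 6.47 CPM in itaconate and 51.1 ± 0.151 CPM in control libraries (SD, n = 3), with a 95% interval of the log2 fold change from -0.05 to 0.53. The scaffold gene Wdfy3 (ALFY), which links p62 bodies to the conjugation machinery, averaged 47.8 ± 6.25 and 56.4 ± 4.69 CPM in itaconate and control libraries (interval -0.54 to 0.07). Within the libraries, the log2 ratio of Sqstm1 over Nbr1 counts was 4.54 ± 0.16 in itaconate and 3.26 ± 0.17 in control libraries (SD, n = 3), without overlap and with p = 0.1 by exact permutation, the lowest this design allows. Optn, the receptor optineurin, had 0, 2 and 6 counts in itaconate libraries and 0 in every control library, and it did not reach the filter on low counts. At this depth a level under 0.492 to 0.577 CPM cannot be told from 0.

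**Figure D2:**
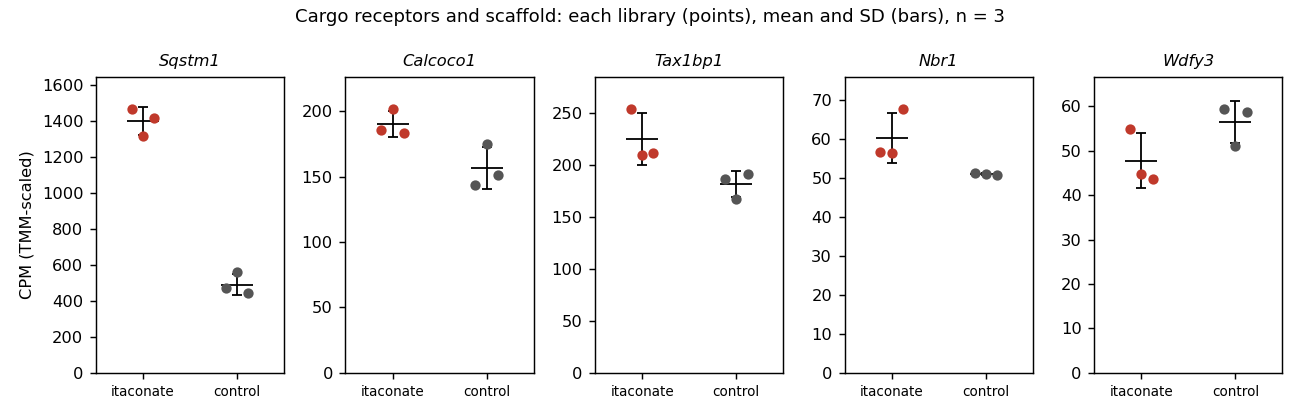
CPM of 5 cargo receptor and scaffold genes in each itaconate library (red) and control library (grey), with mean and SD (n = 3), each panel on its own linear axis from 0. Sqstm1 lies between 1319 and 1469 CPM in itaconate libraries and between 443.7 and 558.9 CPM in control libraries, while the points of Wdfy3 overlap.

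Of the ATG8 family, Gabarapl1, Map1lc3b and Gabarap rose. Gabarapl1, a GABARAP-type ATG8 gene (chromosome 6, 129533160 to 129542346), had 169.9, 188.7 and 187.8 CPM in itaconate libraries, against 74.3, 87.5 and 78.2 CPM in control libraries. The groups were far apart, with a 2.28-fold rise (log2 fold change 1.19 ± 0.11, edgeR adjusted p = 8.93e-13). Map1lc3b, which encodes LC3B, the usual marker of autophagosomes (chromosome 8, 121590361 to 121598760), had 129.7, 124.3 and 125.7 CPM in itaconate libraries and 94.1, 88.4 and 88.4 CPM in control libraries. Replicates were close in both groups, and the rise was 0.49 ± 0.11 (edgeR adjusted p = 0.000672). Gabarap itself had 457.0, 488.6 and 556.4 CPM in itaconate libraries and 418.2, 347.8 and 377.8 CPM in control libraries. The lowest itaconate library was above the highest control library, and the log2 fold change was 0.39 ± 0.09 (edgeR adjusted p = 0.000429).

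The 2 remaining genes of the family were not called. Map1lc3a, which encodes LC3A, averaged 67.8 ± 3.18 CPM in itaconate and 55.8 ± 3.60 CPM in control libraries (SD, n = 3), with groups that did not overlap (log2 fold change 0.28 ± 0.14, edgeR adjusted p = 0.151). Gabarapl2, which encodes GATE-16, averaged 41.5 ± 5.11 CPM in itaconate and 33.5 ± 3.64 CPM in control libraries, with groups that overlapped (0.31 ± 0.17, edgeR adjusted p = 0.213). All 5 fold changes of the family were positive. Summed over the 5 genes, the family had 866.4 to 987.1 CPM in itaconate and 610.2 to 682.6 CPM in control libraries.

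**Figure D3:**
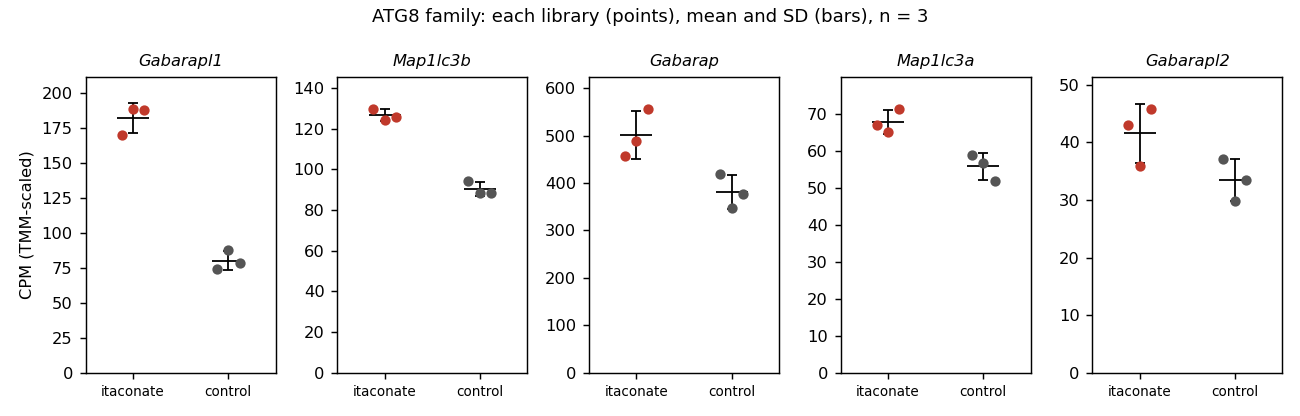
CPM of the 5 ATG8 family genes in each itaconate library (red) and control library (grey), with mean and SD (n = 3), each panel on its own linear axis from 0. Gabarapl1 shows the widest gap, 169.9 to 188.7 CPM in itaconate and 74.3 to 87.5 CPM in control libraries, and Gabarapl2 the only overlap between groups.

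Whether paralogs moved apart was read from the log2 ratio of their counts within each library. For Gabarapl1 over Gabarapl2 the ratio was 2.14 ± 0.22 in itaconate and 1.26 ± 0.28 in control libraries (SD, n = 3), a difference of 0.88. For Gabarapl1 over Map1lc3b it was 0.52 ± 0.12 and -0.18 ± 0.16 in itaconate and control libraries, a difference of 0.70. Groups did not overlap in either pair, and both had p = 0.1 by exact two-sided permutation (0.2 adjusted over the 8 pairs compared). No split of 6 libraries into equal groups can go below 0.1. The ratio of Map1lc3b over Gabarapl2 overlapped between groups, with a difference of 0.18 (exact permutation p = 0.2). Exons of Gabarapl1 and Map1lc3b overlap other genes on the opposite strand: 1700101I11Rik, with at most 3 counts in a library, and Zcchc14, with 62 to 70 counts in itaconate and 66 to 105 in control libraries. Of the 3′ stretches of Map1lc3b, 13.3% also occur in other annotated genes, among them Gm6055 and Gm12727. Neither was found among the counted symbols, and reads with several matches may be missing from the Map1lc3b count.

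Conjugation genes encode the enzymes that process ATG8 and attach it to membrane. Atg4b, the protease that trims and recycles ATG8, had 41.6, 51.6 and 47.7 CPM in itaconate libraries and 36.99, 34.9 and 29.7 CPM in control libraries. The groups did not overlap, and the log2 fold change was 0.47 ± 0.17 (edgeR adjusted p = 0.0370). The call was lost by DESeq2 (0.0752), library totals (0.0682) and no count filter (0.0543), and without control replicate 2 (0.0718), control replicate 3 (0.154), itaconate replicate 2 (0.168) or itaconate replicate 3 (0.0762). Atg12, the ubiquitin-like protein joined to ATG5, had 78.1, 57.9 and 74.1 CPM in itaconate libraries and 46.03, 63.0 and 46.6 CPM in control libraries. Here itaconate replicate 2 lay below control replicate 2, so the groups overlapped (log2 fold change 0.43 ± 0.15, edgeR adjusted p = 0.0304). Atg12 lost its call by DESeq2 (0.0881) and library totals (0.0635), and without control replicate 1 (0.146), control replicate 3 (0.137), itaconate replicate 1 (0.160) or itaconate replicate 3 (0.0873).

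The other 6 conjugation genes were not called. Atg7, the E1-like enzyme at the head of both conjugation systems, averaged 109.5 ± 10.3 CPM in itaconate and 94.9 ± 10.2 CPM in control libraries (SD, n = 3, interval of the log2 fold change -0.03 to 0.44). The E2-like genes Atg3 (-0.04 ± 0.15 SE) and Atg10 (-0.05 ± 0.26) had overlapping groups. So did Atg5 (0.05 ± 0.14) and Atg16l1 (-0.03 ± 0.19), whose proteins form the complex that directs ATG8 to the membrane. Atg4a, a second ATG8 protease gene, had -0.13 ± 0.25. Its count is uncertain, since 27.4% of its 3′ stretches also occur in the pseudogene Atg4a-ps.

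Membrane supply genes all had positive fold changes. Wipi1, which encodes a reader of phosphatidylinositol 3-phosphate on forming autophagosomes (chromosome 11, 109573331 to 109611967), had 10.2, 11.02 and 11.5 CPM in itaconate libraries, against 3.68, 3.41 and 3.36 CPM in control libraries. The groups were far apart, with a 3.12-fold rise (log2 fold change 1.64 ± 0.39 SE, edgeR adjusted p = 0.00139). The counts behind it were low, 54 to 66 in itaconate and 18 to 22 in control libraries, and its SE was the highest among the autophagy genes tested. Wipi2, the reader that recruits ATG16L1, had 71.7, 72.7 and 82.01 CPM in itaconate libraries and 55.9, 56.5 and 56.9 CPM in control libraries. All itaconate libraries were higher (0.42 ± 0.13, edgeR adjusted p = 0.0182), but the call was lost without control replicate 2 (0.0510) or itaconate replicate 3 (0.0868). The log2 ratio of Wipi1 over Wipi2 was -2.78 ± 0.06 in itaconate and -3.99 ± 0.08 in control libraries (SD, n = 3), with p = 0.1 by exact permutation.

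The lipid transfer genes Atg2a and Atg2b, whose products bridge the endoplasmic reticulum and the growing membrane, were not called although neither had overlapping groups. Atg2a averaged 56.9 ± 2.46 CPM in itaconate and 45.7 ± 6.95 CPM in control libraries, and Atg2b 26.5 ± 4.22 and 19.7 ± 0.274 CPM in itaconate and control libraries (SD, n = 3, edgeR adjusted p = 0.145 and 0.152). Exons of Atg2b overlap Gskip on the opposite strand, outside the last 1000 bases of Atg2b. Gskip had 147 to 218 counts in itaconate and 155 to 196 in control libraries. Atg2b had 125 to 179 counts in itaconate and 107 to 121 in control libraries. The scramblase gene Atg9a had 0.27 ± 0.29 (SE). Of its 3′ stretches, 62.3% also occur in Gm29253, which overlaps it on the same strand and was not found among the counted symbols. The Atg9a count is uncertain, since it may hold transcripts of Gm29253 as well.

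Initiation genes showed no called change. Ulk1, the kinase that starts autophagy, averaged 28.6 ± 6.39 CPM in itaconate and 22.8 ± 2.29 CPM in control libraries (SD, n = 3, interval of the log2 fold change -0.09 to 0.74). Its paralog Ulk2 averaged 24.1 ± 1.301 and 25.2 ± 1.45 CPM in itaconate and control libraries (interval -0.47 to 0.35). The log2 ratio of Ulk1 over Ulk2 differed by 0.37 between the groups, with overlap (exact permutation p = 0.2). Atg13, the regulatory subunit, lay lower in all 3 itaconate libraries, at 70.6 to 76.1 CPM against 77.2 to 91.0 CPM in control libraries, without passing (-0.21 ± 0.13 SE, edgeR adjusted p = 0.240). Atg101 (0.14 ± 0.15) and Rb1cc1 (0.14 ± 0.14), which encodes the scaffold FIP200, overlapped between groups.

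Nucleation genes held the fall. Uvrag, a Beclin 1 partner that acts in autophagosome maturation and endosomal traffic, had 46.7, 43.5 and 41.8 CPM in itaconate libraries, against 68.3, 61.1 and 56.5 CPM in control libraries. All 3 itaconate libraries were below the lowest control library, and the log2 fold change was -0.49 ± 0.15 (edgeR adjusted p = 0.0114). Without control replicate 1, the highest of the controls, the call was lost (0.0776). Atg14, the Beclin 1 partner of the complex that starts autophagosomes, averaged 19.7 ± 2.87 CPM in itaconate and 24.3 ± 2.33 CPM in control libraries (SD, n = 3), with overlap and no call (-0.30 ± 0.22 SE). The regulatory kinase subunit gene Pik3r4 had -0.31 ± 0.19, the lipid kinase gene Pik3c3 (VPS34) -0.15 ± 0.21, the scaffold gene Ambra1 -0.02 ± 0.20 and Becn1 itself (Beclin 1) 0.38 ± 0.33. The Becn1 value rests on 44 to 71 counts in itaconate and 41 to 57 in control libraries.

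Fusion genes were not called. Stx17, the autophagosomal SNARE, averaged 32.0 ± 8.82 CPM in itaconate and 33.6 ± 4.13 CPM in control libraries (SD, n = 3), and the tether gene Epg5 averaged 12.2 ± 4.81 and 9.70 ± 4.53 CPM in itaconate and control libraries. Groups overlapped for both. Among the 25 autophagy genes that were not called, 13 fold changes were positive and 12 negative, between -0.31 and 0.43. Their 95% intervals lay within -1 and 1 for 23 of them and within -0.5 and 0.5 for 10.

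**Figure D4:**
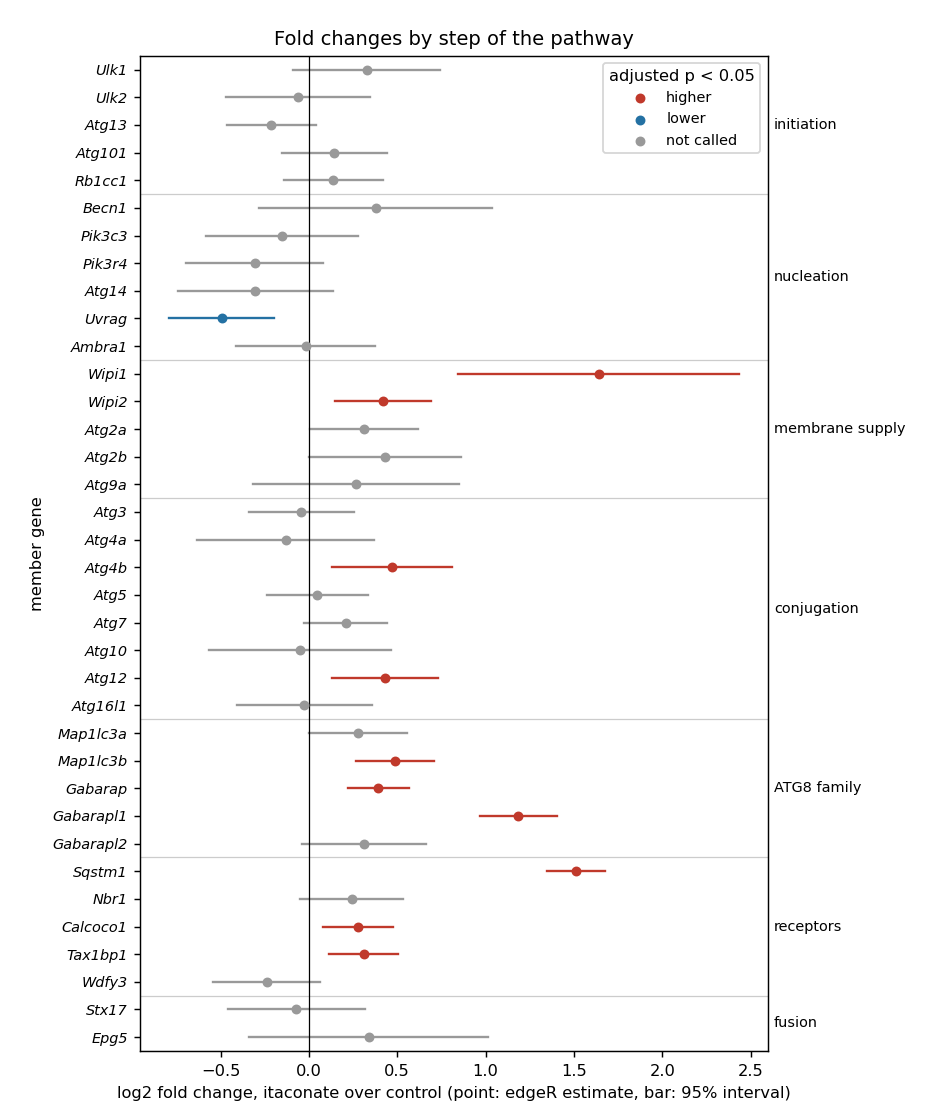
Log2 fold change of itaconate over control for the 36 tested autophagy genes by step, with the edgeR estimate as a point and its 95% interval as a bar, in red for called higher, blue for called lower and grey for not called. The intervals of Sqstm1, Gabarapl1 and Wipi1 lie farthest to the right, and Uvrag is the one gene called lower.

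Of the 11 called autophagy genes, 5 were called in all 13 alternative fits: Sqstm1, Gabarapl1, Map1lc3b, Gabarap and Wipi1. Their log2 fold changes over those fits ran from 1.44 to 1.62 for Sqstm1, 1.13 to 1.26 for Gabarapl1 and 1.59 to 1.69 for Wipi1. The other 6 lost the call in at least 1 fit and kept their direction in all. None of the 25 genes not called passed in any of the 13 fits. An unadjusted p under 0.05 in edgeR was reached by 14 of the 36 tested, among them the 11 called. Over all 10636 genes tested, 3424 reached it.

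**Figure D5:**
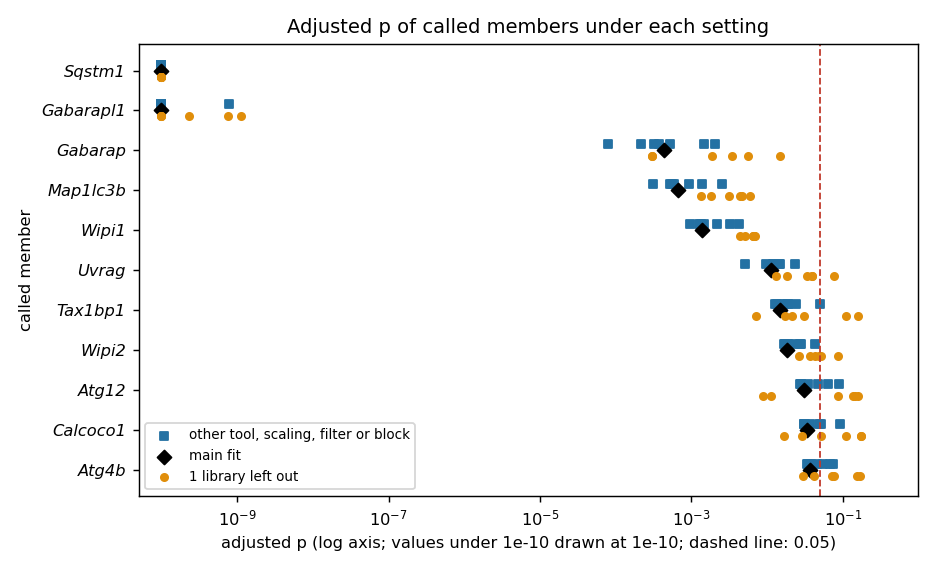
Adjusted p of the 11 called autophagy genes on a log axis, for the edgeR fit used throughout (black diamonds), fits with another tool, scaling, filter or block (blue squares) and fits with 1 library left out (orange points). The smallest values are drawn at the left edge marked on the axis. Points to the right of the dashed line at 0.05 are lost calls, which occur for Uvrag, Tax1bp1, Wipi2, Atg12, Calcoco1 and Atg4b.

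Genes around the pathway were read from 5 further lists with 95 genes, of which 88 were tested. Of these, 12 rose (13.6%) and 3 fell (3.41%), against 10.7% and 11.2% of all genes tested. Together that was 17.0%, against 21.9% of all genes tested. The counts for each list below stand beside the same shares of all genes. In the list of other core genes 2 of 11 rose. Tecpr1, a tether between autophagosome and lysosome, had 277.0, 272.1 and 275.4 CPM in itaconate libraries and 132.6, 133.2 and 131.9 CPM in control libraries. Its groups stood far apart (log2 fold change 1.05 ± 0.09, edgeR adjusted p = 2.75e-13). Vmp1, a lipid scramblase of the endoplasmic reticulum needed for autophagosome formation, rose by 0.61 ± 0.09 (edgeR adjusted p = 7.28e-07). Its exons overlap the microRNA gene Mir21a on the same strand, which had 0 counts in every library. Of the 3′ stretches of Vmp1, 7.80% also occur in Mir21a and Gm1969, so its count is uncertain.

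Among receptors for single organelles 1 of 15 rose, the mitophagy receptor gene Bnip3 (0.59 ± 0.17, edgeR adjusted p = 0.00891, and 0.0656 without control replicate 3). Its count is uncertain, since 23.2% of its 3′ stretches also occur in other genes. Of 18 partners of fusion with the lysosome, 2 rose and 1 fell. The tethering subunit gene Vps39 (0.49 ± 0.14) and the small GTPase gene Rab7 (0.28 ± 0.09) were higher, Rab7 not without control replicate 3 (edgeR adjusted p = 0.114). Vamp8, the lysosomal SNARE that pairs with syntaxin 17, fell to 162.6 CPM in itaconate libraries, against 232.0 CPM in control libraries (-0.51 ± 0.10, edgeR adjusted p = 9.96e-05). Its libraries did not overlap between the groups.

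In the list of mTORC1 and AMPK signalling 5 of 31 rose and 1 fell, with a median log2 fold change of 0.23, and the number higher was 3 without control replicate 2 or control replicate 3. The Rag GTPase gene Rraga, which brings mTORC1 to the lysosome, rose by 0.72 ± 0.13, and the folliculin partner genes Fnip2 and Fnip1 by 0.51 ± 0.10 and 0.36 ± 0.10. Fnip1 was not called without control replicate 2 (edgeR adjusted p = 0.0503). Among 13 transcription regulators 2 rose and 1 fell. The stress response genes Atf4 and Ddit3 (CHOP) rose by 0.45 ± 0.08 and 1.08 ± 0.21. Exons of Ddit3 overlap Mars on the opposite strand, which had 242 to 322 counts in itaconate and 153 to 309 in control libraries, so the Ddit3 count is uncertain. Nfe2l2, which encodes NRF2, had -0.25 ± 0.09 (edgeR adjusted p = 0.0358), a call lost with no count filter (0.0556) and without control replicate 1 (0.0545), control replicate 2 (0.0991), control replicate 3 (0.103), itaconate replicate 1 (0.0791) or itaconate replicate 3 (0.164). The genes of TFEB and its relatives, master regulators of lysosome and autophagy genes and chosen here after their values were seen, were not called, with 0.02 ± 0.21 for Tfeb, 0.07 ± 0.10 for Tfe3, 0.07 ± 0.10 for Mitf and 0.41 ± 0.23 for Tfec.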

How the data were processed

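The authors deposited 1 table of raw counts, with a row for each gene symbol and a column for each of 6 libraries. Per the labels' protocols, the kit was QuantSeq FWD from Lexogen, which reads the 3′ ends of transcripts. STAR 2.7.5a, HTSeq 0.6.1, edgeR and build mm10 are named in the submitters' processing notes. Neither the strand setting nor the rule for reads with several matches is stated there. All 6 count columns were used, matched to the header's names by position since the header has 1 extra empty cell, and groups come from the treatment label.

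Genes passing edgeR's filterByExpr (minimum count 10, minimum total 15) were scaled by TMM and tested with edgeR 4.0.16 under R 4.3.3 by its robust quasi-likelihood test with group as the sole term, with Benjamini-Hochberg adjustment over all 10636 genes tested and calls at 0.05. The script was tested on simulated data. CPM are TMM-scaled. SE is the absolute log2 fold change over the square root of F, and intervals cover 95%. Alternatives were DESeq2 1.42.0, limma-voom 3.58.1, other scalings and filters, a replicate block and leaving out each library. Counts without molecular identifiers are not independent molecules, so floors of 3 counts cover counting error only. Paralog ratios used a pseudocount of 0.5 counts.

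The genes and lists were chosen with earlier results of these data known. Values per library are given for every called autophagy gene, and up to 3 called genes with the smallest p are named from each further list. Symbols missing from the table were sought among RefSeq synonyms for the further lists only. Coordinates and exon overlaps come from GENCODE M21 (GRCm38, which mm10 names). Shared 3′ ends are the share of 50-base stretches in the last 400 bases of a gene's transcripts that occur in transcripts of other genes.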

Additional observations from a re-analysis of the deposited data

How the results depend on the processing

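Over the 13 alternatives, the number of autophagy genes called higher stayed between 7 and 10, with 7 by DESeq2 and 7 with library totals, and from 7 to 8 with 1 library left out. The number called lower was 1 under every other tool, scaling, filter and block, and 0 to 1 with 1 library left out. Counts by step moved in conjugation and in receptors. In conjugation 0 rose by DESeq2, 0 with library totals and 1 with no count filter, and 0 to 1 with 1 library left out. Receptors had 2 higher by DESeq2 and 2 with library totals. With 1 library left out, membrane supply had 1 to 2 higher, receptors 1 to 3 higher and nucleation 0 to 1 lower. These follow from the lost calls given above for single genes, and the cause was not tested. Over all genes, DESeq2 called 962 higher and 990 lower, and library totals 935 and 1429, with a median log2 fold change of -0.06.

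No called autophagy gene changed direction. Some genes that were not called did. Without 1 library, log2 fold changes ran from -0.338 to 0.0887 for Pik3c3, -0.12 to 0.12 for Ambra1, -0.129 to 0.0679 for Atg3, -0.32 to 0.16 for Atg4a, -0.0752 to 0.138 for Atg5, -0.21 to 0.15 for Atg10, -0.12 to 0.13 for Atg16l1, -0.315 to 0.0745 for Stx17 and -0.0314 to 0.780 for Epg5, and the change in the ratio of Atg2a over Atg2b ran from -0.205 to 0.0672. With library totals Atg5 had -0.0041.

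Replicate numbers are shared by the groups, but deviations of same-numbered libraries correlated at only -0.01, 0.02 and 0.04 across genes. Libraries of different number correlated at -0.04 to 0.03. No sign of pairing by number was seen, though a pairing that touches few genes might not show in these values. The fit with a replicate block called 10 autophagy genes higher and 1 lower, and 1087 and 1160 of all genes. With no count filter Optn had an unadjusted p of 0.0838 (adjusted 0.327), and its few counts limit any statement on it.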
